A study of Mus musculus with 6 samples.

Results

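A set of 9 genes that drive lymphoid tumours or entry into the cell cycle were followed in mouse splenocytes with and without Top3b knockout. They were the transcription factors Myc and Myb, the receptor Notch1, and the kinases Pim1 and Pim2. The others were the D-type cyclins Ccnd2 and Ccnd3 and the cyclin-dependent kinases Cdk4 and Cdk6. The genes were taken by name from the deposited count table, which held all 9 among 56413 gene symbols. All 9 also passed the filter on low counts, among 18716 symbols tested. The groups were 3 Top3b-KO and 3 wild-type (WT) libraries of total RNA, depleted of ribosomal RNA, from fresh primary cells of whole spleen. The Top3b product is a topoisomerase that acts on DNA and RNA, and the study asked how its loss bears on tumours and on the balance of the immune system. The labels give neither the strain, sex and age of the mice nor the kind of knockout allele, and do not say whether a library is 1 animal or a pool.

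These genes sit on a common path from growth signals to DNA replication. Myc pairs with Max, binds the E-box CACGTG and raises the genes of ribosome production and metabolism. Cytokine receptors induce the Pim kinases through STAT factors, and the D-type cyclins switch on Cdk4 and Cdk6, which inactivate the retinoblastoma protein and release E2F factors. In mice, proviral insertions next to Myc, the Pim genes, Notch1, Myb, Ccnd2 and Ccnd3 are classic causes of lymphoma and leukaemia, and activating Notch1 mutations are frequent in T cell leukaemia.

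None of the 9 genes passed the test between genotypes. In edgeR's quasi-likelihood test, with p-values adjusted by Benjamini and Hochberg over all 18716 genes, 0 of 9 passed at 0.05, where 0.0107% of all tested genes passed (2 genes). At an unadjusted p under 0.05, 0 of 9 passed by edgeR, by DESeq2 and by limma-voom, where 5.52% of all tested genes passed by edgeR. Log2 fold changes, as Top3b-KO over WT, were above 0 for 5 genes and below 0 for 4, with a median of 0.013 beside -0.0029 over all tested genes. Of 14 alternative analyses, the median of the 9 was taken for DESeq2, no low-count filter, a replicate block and each library left out. It ran from -0.033 without WT replicate 3 to 0.038 without Top3b-KO replicate 2. The greatest absolute log2 fold change among the 9 was 0.13. Each gene's 95% interval held no change, and all 9 intervals lay within 1.25-fold in either direction. Narrow intervals were common at such levels: 98.9% of the 5088 tested genes at 40 to 600 CPM had one within 1.5-fold. Each interval stands for 1 gene alone and carries no correction for the 9.

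**Figure D1:**
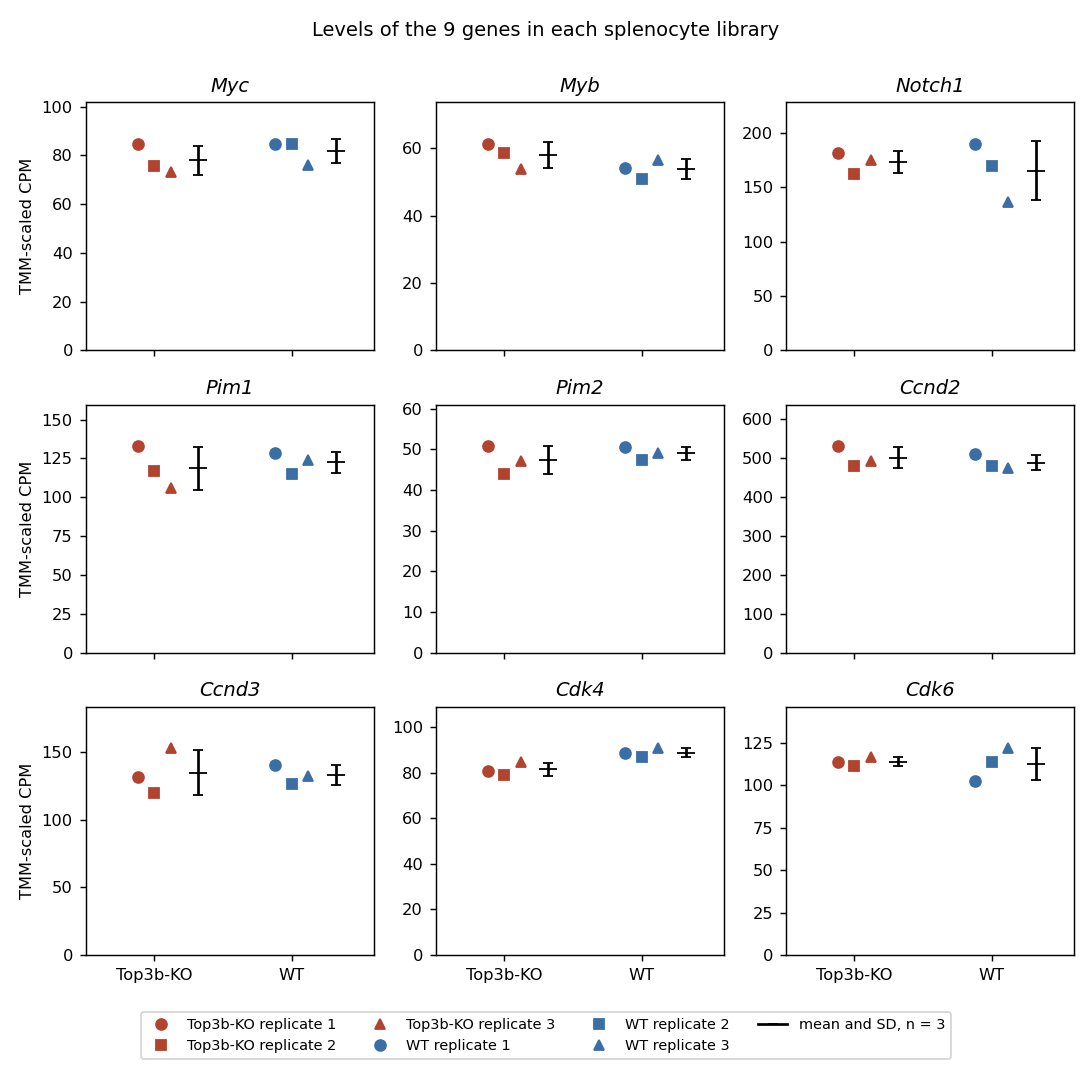
TMM-scaled CPM (counts relative to the library total, y axis from 0) of the 9 genes in each library, Top3b-KO left and WT right, with replicate numbers as symbols and the mean and SD beside them (n = 3). The points of the 2 genotypes overlap in every panel except Cdk4, where the Top3b-KO libraries lie between 78.8 and 84.8 CPM and the WT libraries between 86.8 and 90.7 CPM.

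Levels are given as CPM, counts scaled to a common library total. The libraries held 24510381, 25473405 and 9941019 counts in Top3b-KO, against 15448261, 15262063 and 15860288 in WT, so Top3b-KO replicate 3 was the shallowest. Every member had at least 466 counts in each library. Top3b itself was at 51.5, 48.2 and 49.7 CPM in Top3b-KO and at 95.1, 86.9 and 91.0 CPM in WT, a log2 fold change of -0.87 (SE 0.071, edgeR adjusted p 5.78e-06). Counts per gene do not show whether the remaining Top3b reads lie outside the deleted part. Both major splenic lymphocyte types were present. All 8 B cell markers summed to between 3843 and 4061 CPM in Top3b-KO and between 3678 and 4323 CPM in WT, and all 10 T cell markers to between 1729 and 1810 CPM in Top3b-KO and between 1560 and 1786 CPM in WT. In bulk RNA, fewer cells of a type and less RNA per cell cannot be told apart.

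Cdk4 was the single member (1 of 9) whose genotypes did not overlap, where 11.0% of all tested genes had none, and the promoters of Cdk4 and its relative Cdk6 are shown here because their ratio is described further on. Promoter windows from RefSeq (GRCm38.p6, 250 bases before to 50 after a gene's start) matched 7 of the 9 genes with 9 windows; Myc and Ccnd2 had none. The count table was made on mm39, so these positions belong to GRCm38.p6 alone. Capitals mark the E-box CACGTG, which reads the same on both strands and is counted once. The Cdk4 window is chr10:127063285-127063584 on the plus strand and the Cdk6 window is chr5:3343643-3343942 on the plus strand.
Cdk4: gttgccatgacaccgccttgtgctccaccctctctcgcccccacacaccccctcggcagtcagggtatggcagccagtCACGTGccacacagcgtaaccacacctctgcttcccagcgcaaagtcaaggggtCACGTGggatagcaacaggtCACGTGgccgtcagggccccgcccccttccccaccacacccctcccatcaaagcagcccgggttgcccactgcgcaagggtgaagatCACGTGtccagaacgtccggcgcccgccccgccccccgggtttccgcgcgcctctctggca
Cdk6: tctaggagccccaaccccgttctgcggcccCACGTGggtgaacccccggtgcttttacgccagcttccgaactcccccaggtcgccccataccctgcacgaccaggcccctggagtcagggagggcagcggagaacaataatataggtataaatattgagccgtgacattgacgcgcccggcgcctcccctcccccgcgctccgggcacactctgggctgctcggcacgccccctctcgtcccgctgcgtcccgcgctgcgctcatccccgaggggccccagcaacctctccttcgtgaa

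The Cdk4 window held 4 E-boxes, starting at -172, -118, -98 and -11 relative to the first base of the gene. Windows with 4 or more were rare, at 8 of 32851 (0.0244%). Cdk6 held 1, at -220, and the second window of Pim1 held 1, at -58. Thus 3 of the 9 member windows had an E-box, where 7.15% of all windows and 9.49% of the windows of tested genes had at least 1. The E2F motifs TTTCGCGC and TTTGGCGC, on either strand, occurred in 0 of the 9 windows and in 0.813% of all windows. The STAT motif TTCNNNGAA also occurred in 0 of 9 and in 8.30% of all. The motif TGGGAA, which the NOTCH partner RBPJ binds, occurred in the Cdk4 window and in 25.6% of all. The short MYB core AACNG occurred in 6 of 9 and in 80.3% of all. The GC content of the member windows ran from 49.0% to 81.3%, with a median of 67.0% beside 59.7% over windows of tested genes. A motif match describes letters in the window and no binding was measured.

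Among the transcription factors, Myc was at 84.8, 75.8 and 73.1 CPM in Top3b-KO and at 84.8, 84.7 and 76.1 CPM in WT. The highest Top3b-KO library equalled the highest WT library, and the other Top3b-KO values lay just under the lowest WT value. The means were 77.9 ± 6.10 CPM in Top3b-KO and 81.9 ± 5.00 CPM in WT (SD, n = 3), a fold of 0.954 with a 95% interval of 0.855 to 1.07 and an edgeR adjusted p of 0.955.

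Myb, a factor of blood progenitors and developing lymphocytes, was at 61.4, 58.6 and 53.8 CPM in Top3b-KO and at 54.0, 50.8 and 56.7 CPM in WT. The Top3b-KO values were mostly higher, but the lowest of them fell inside the WT range. The means were 57.9 ± 3.83 CPM in Top3b-KO and 53.8 ± 2.94 CPM in WT, a fold of 1.08 (95% interval 0.965 to 1.21, edgeR adjusted p 0.915). Myb stayed above 0 on the log2 scale in all 14 alternative analyses, from 0.071 to 0.16, and passed the test in 0 of them.

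Notch1, the receptor that commits progenitors to the T lineage, was at 181.6, 162.3 and 175.4 CPM in Top3b-KO and at 190.1, 169.2 and 136.8 CPM in WT. It was the most variable member, and its WT libraries held both the highest and the lowest value. The means were 173 ± 9.88 CPM in Top3b-KO and 165 ± 26.8 CPM in WT, a fold of 1.05 (95% interval 0.905 to 1.21, edgeR adjusted p 0.97). The direction turned without WT replicate 3, the library at 136.8 CPM, where the log2 fold change was -0.055. WT replicate 3 also had the lowest summed T cell markers, at 1560 CPM, and WT replicate 1, with the highest Notch1, had the highest of the WT libraries, at 1786 CPM. Among the Top3b-KO libraries, replicate 3 had the lowest sum, 1729 CPM, but not the lowest Notch1. The part of T cell content in the Notch1 values was not tested.

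Pim1 was at 133.0, 117.0 and 105.8 CPM in Top3b-KO and at 128.4, 115.1 and 124.0 CPM in WT. Its fold was 0.971 (95% interval 0.866 to 1.09, edgeR adjusted p 0.97), and the Top3b-KO libraries held both extremes. Without Top3b-KO replicate 3, the lowest, the log2 fold change was 0.029 in place of -0.042.

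Pim2, the family member prominent in lymphocytes, was at 50.8, 44.0 and 47.1 CPM in Top3b-KO and at 50.6, 47.4 and 49.1 CPM in WT. The Top3b-KO libraries enclosed the WT range on both sides, with a fold of 0.966 (95% interval 0.861 to 1.08, edgeR adjusted p 0.97). Leaving out Top3b-KO replicate 2, the lowest library, gave a log2 fold change of 0.0086 in place of -0.050.

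**Figure D2:**
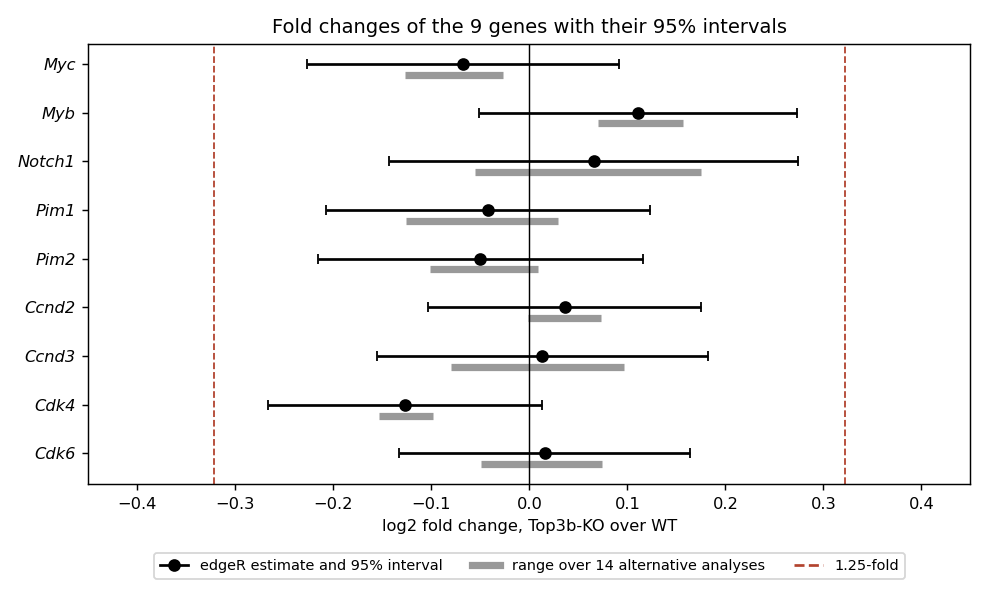
Log2 fold change of Top3b-KO over WT (x axis) for each gene, with edgeR's 95% interval in black and the range over 14 alternative analyses in grey. All intervals cross 0 and stay inside the dashed lines at 1.25-fold, and the grey bars of Myc, Myb and Cdk4 stay on their side of 0.

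Ccnd2, the D-type cyclin that B cells induce after antigen receptor signals, was at 531.7, 479.3 and 493.4 CPM in Top3b-KO and at 511.5, 480.3 and 475.6 CPM in WT. It varied least of the 9, with an SD of 0.064 on the log2 scale over the 6 libraries. The fold was 1.03 (95% interval 0.931 to 1.13, edgeR adjusted p 0.97).

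Ccnd3, needed for thymocyte and germinal centre B cell expansion in mice, was at 131.4, 120.0 and 152.7 CPM in Top3b-KO and at 140.6, 125.9 and 132.2 CPM in WT. The Top3b-KO libraries enclosed the WT range on both sides. Their means were 135 ± 16.6 CPM in Top3b-KO and 133 ± 7.38 CPM in WT, a fold of 1.01 (95% interval 0.898 to 1.13, edgeR adjusted p 0.99). Without Top3b-KO replicate 3, the highest library, the log2 fold change was -0.080. The 8 neutrophil markers summed, in order of replicate, to 446, 621 and 1483 CPM in Top3b-KO and to 615, 1093 and 748 CPM in WT. Top3b-KO replicate 3 was thus the highest library in both measures, but among the WT libraries replicate 2, with the highest neutrophil sum, had the lowest Ccnd3. The part of neutrophil content in it was not tested.

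Cdk4 was at 80.8, 78.8 and 84.8 CPM in Top3b-KO and at 88.9, 86.8 and 90.7 CPM in WT. Every Top3b-KO library lay below every WT library. The means were 81.5 ± 3.04 CPM in Top3b-KO and 88.8 ± 1.96 CPM in WT, a fold of 0.916 with a 95% interval of 0.831 to 1.01. Cdk4 did not pass, with an edgeR adjusted p of 0.915, and its unadjusted edgeR p of 0.073 ranked 1463 of the 18716 genes. A count of 1 in 9 without overlap is close to that background of 11.0%. The log2 fold change stayed below 0 in all 14 alternative analyses, from -0.15 to -0.098. The gap between genotypes depends on the scale. Per transcript length, Cdk4 was at 96.8 to 106.9 TPM in Top3b-KO and 106.2 to 113.5 TPM in WT, which overlap.

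Exons of Tspan31, a tetraspanin gene on the opposite strand, overlap 641 bases (19.7%) of the exons of Cdk4 in GENCODE M21. The protocol names stranded library kits, but no source used here gives the strand setting of the counts, so reads in the overlap may be shared. Tspan31 was at 16.1 ± 0.435 CPM in Top3b-KO and 15.05 ± 1.90 CPM in WT (SD, n = 3), and the sum of both genes was 94.98 to 100.5 CPM in Top3b-KO and 100.7 to 106.1 CPM in WT. Antisense partners of Myb, Notch1, Pim1, Ccnd2 and Cdk6 had means of 51 counts or fewer per library in either genotype. Bysl, opposite to Ccnd3 with 361 shared bases, was at 37.4 CPM in both genotypes.

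Cdk6 was at 113.9, 111.4 and 116.9 CPM in Top3b-KO and at 102.8, 113.5 and 121.9 CPM in WT. Its Top3b-KO values lay inside the WT range, with a fold of 1.01 (95% interval 0.912 to 1.12, edgeR adjusted p 0.99). The log2 fold change was -0.050 without WT replicate 1, the lowest library.

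Ratios within a library do not depend on how depth is scaled, and were compared for 3 related pairs. The log2 ratio of Cdk6 over Cdk4 counts was 0.50, 0.50 and 0.46 in Top3b-KO and 0.21, 0.39 and 0.43 in WT. All Top3b-KO libraries lay above all WT libraries, with a difference of 0.14, and the two-sided exact permutation p was 0.1, the smallest that 3 against 3 allow, or 0.3 adjusted over the 3 ratios. Without WT replicate 1, the library at 0.21, the difference was 0.079. The ratio of Ccnd2 over Ccnd3 averaged 1.90 ± 0.182 on the log2 scale in Top3b-KO and 1.88 ± 0.0449 in WT (n = 3, exact permutation p = 1). Pim1 over Pim2 averaged 1.32 ± 0.134 in Top3b-KO and 1.32 ± 0.0353 in WT (n = 3, exact permutation p = 1). For both, Top3b-KO replicate 3 was the lowest of the 6 libraries, at 1.69 and 1.17.

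**Figure D3:**
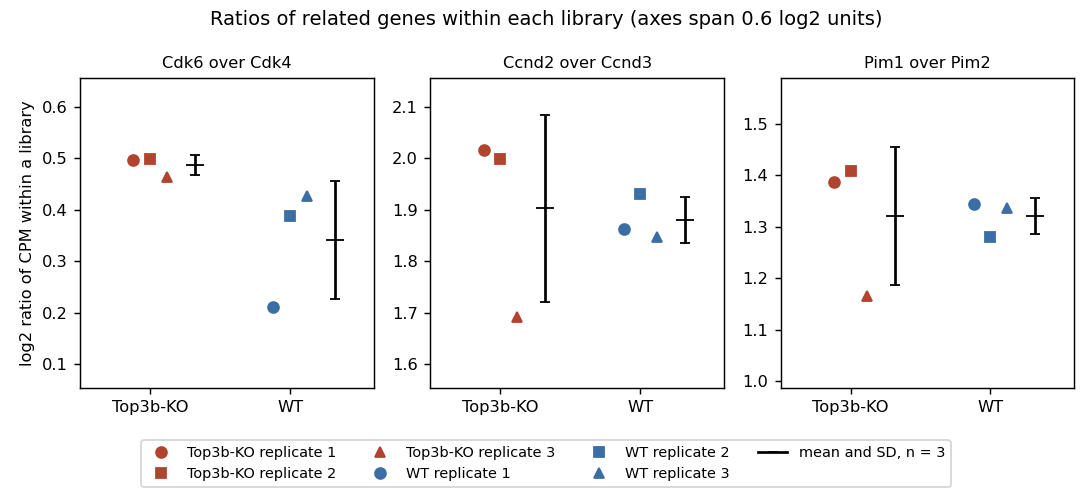
Log2 ratio of the CPM of 2 related genes within each library, Top3b-KO left and WT right, with mean and SD (n = 3); each y axis spans 0.6 log2 units and does not start at 0. Cdk6 over Cdk4 is 0.46 to 0.50 in Top3b-KO and 0.21 to 0.43 in WT, and in the other 2 panels Top3b-KO replicate 3 lies lowest.

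Levels of different genes were set side by side per transcript length, as TPM (length-scaled shares of all counts) with the longest coding transcript of GENCODE M21. Ccnd2 was the highest, at 204 ± 13.6 TPM in Top3b-KO and 196 ± 7.65 TPM in WT (SD, n = 3). Ccnd3 followed at 164 ± 21.99 TPM in Top3b-KO and 160 ± 9.56 TPM in WT. Pim1 (113 TPM in Top3b-KO, 115 TPM in WT) and Cdk4 (102 TPM in Top3b-KO, 110 TPM in WT) came next, and their library ranges overlapped. Myc had 85.6 TPM in Top3b-KO and 88.8 TPM in WT, and Pim2 had 59.5 TPM in Top3b-KO and 60.8 TPM in WT. Notch1 (46.9 TPM in Top3b-KO, 44.2 TPM in WT) and Myb (40.3 TPM in Top3b-KO, 37.0 TPM in WT) overlapped in range. Cdk6 was the lowest with these transcripts, at 25.4 ± 0.965 TPM in Top3b-KO and 24.8 ± 2.28 TPM in WT. Thus Cdk6, with more counts than Cdk4, was below it per length, since its transcript is 11525 bases long against 2053. All other neighbours in this order had library ranges that stayed apart. The order rests on the transcript chosen. Over all annotated exons, Ccnd2 stayed first, Pim1 came second and Myc passed Cdk4, while Ccnd3 dropped to rank 6 of 9. Myb was then the lowest, at a mean of 22.1 TPM over the 6 libraries, and Cdk6 was at rank 8 with 28.7 TPM.

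**Figure D4:**
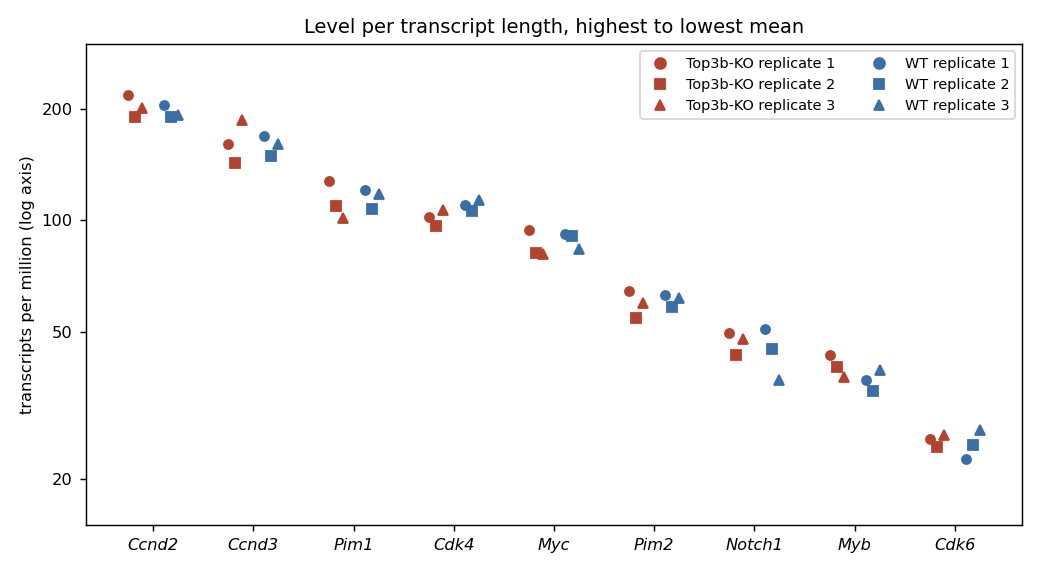
TPM (log axis) of each gene in the 6 libraries, in order of the mean, with Top3b-KO points left of WT points. With the longest coding transcripts, Ccnd2 leads at 191 to 218 TPM and Cdk6 is lowest at 22.6 to 27.2 TPM, and the ranges of the genotypes overlap for all 9 genes.

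No single library pattern held for every member. Top3b-KO replicate 1 was the highest of the 6 libraries for 5 members (Myc, Myb, Pim1, Pim2 and Ccnd2). Top3b-KO replicate 2 was the lowest for 3 (Pim2, Ccnd3 and Cdk4). WT replicate 1 was among the 2 highest libraries for 7 members, and Top3b-KO replicate 1 for 6. WT replicate 3 and Top3b-KO replicate 3 were each among them for 2, Top3b-KO replicate 2 for 1 and WT replicate 2 for 0. WT replicate 1 was also the lowest library for 1 member (Cdk6). The highest value of a member was between 1.12 and 1.39 times its lowest. For the 3 members that varied most, the genes nearest in pattern were sought among 9075 other genes of at least 10 CPM. Gm-number, Rik and clone-accession symbols were left out. The measure was the root-mean-square difference of centred log2 CPM over the 6 libraries. The smallest of so many distances are small by selection, and shared regulation was not tested. Nearest to Notch1 were Gtpbp6 (0.016), Agap3 (0.034) and Plec (0.034). Oas1b (0.032), Dvl3 (0.035) and Ogg1 (0.038) were nearest to Ccnd3, and Eci2 (0.027), Cenpa (0.030) and Ankrd39 (0.034) to Pim1. For scale, the SDs of Notch1, Ccnd3 and Pim1 over the 6 libraries were 0.17, 0.12 and 0.12 on the log2 scale.

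The surrounding pathway genes are given by lists, and in each of them 0 members passed edgeR's test over all genes. Close relatives of the 9 had 2 of 9 above 0 and 7 below, with a median log2 fold change of -0.14. When a single library was dropped, this median lay between -0.24 (Top3b-KO replicate 1 dropped) and -0.11 (Top3b-KO replicate 3 dropped). It was -0.22 when WT replicate 3 was dropped. Mycl, a MYC family member, was at 6.87 ± 1.74 CPM in Top3b-KO and 9.49 ± 1.26 CPM in WT (SD, n = 3; log2 fold change -0.42, edgeR adjusted p 0.86). Ccnd1, the third D-type cyclin, was at 26.8 CPM in Top3b-KO and 29.8 CPM in WT, and Notch2, the receptor of marginal zone B cells, at 689.8 CPM in Top3b-KO and 653 CPM in WT.

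MYC partners and antagonists had 4 of 11 genes above 0 and 7 below, with a median of -0.056 that ran from -0.10 without WT replicate 3 to -0.0064 without Top3b-KO replicate 1. Mga, which competes with Myc for Max, was at 363 ± 2.72 CPM in Top3b-KO and 316 ± 12.3 CPM in WT, a log2 fold change of 0.20 (SE 0.062, edgeR adjusted p 0.67) with genotypes apart. Huwe1, a ubiquitin ligase that acts on Myc protein, was at 999.7 CPM in Top3b-KO and 923 CPM in WT, also apart. These abundant genes were higher in Top3b-KO while 7 others were lower, and the summed level of the list was 1943 to 1970 CPM in Top3b-KO and 1822 to 1871 CPM in WT.

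MYC target genes of ribosome production and metabolism had 11 of 20 above 0 and 9 below, with a median of 0.011 that ran from -0.0066 without WT replicate 3 to 0.041 without WT replicate 1. Ncl, which encodes nucleolin, was at 1133 ± 49.7 CPM in Top3b-KO and 1027 ± 34.5 CPM in WT (log2 fold change 0.14, edgeR adjusted p 0.89). Wdr43, a factor of ribosomal RNA processing, had a log2 fold change of 0.15 and Srm, the spermidine synthase gene, of -0.25, each with an edgeR adjusted p of 0.88. The list thus held genes on both sides of 0. Its sum, in which Ncl weighs most, was 3895 to 4022 CPM in Top3b-KO and 3815 to 3840 CPM in WT.

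NOTCH ligands and processing genes had 6 of 13 tested above 0 and 7 below, and Dll4 was too low to test. The median was -0.0092, and ran from -0.037 without WT replicate 1 to 0.061 without WT replicate 2. Their sum was 757 to 760.1 CPM in Top3b-KO and 711 to 749 CPM in WT, which do not overlap. Of the 13 tested genes, 0 had genotypes apart, where 11.0% of all tested genes did. Adam10, which weighs most in the sum, was at 197.3 to 207.7 CPM in Top3b-KO and 181.7 to 202.6 CPM in WT. Maml2, a coactivator of the NOTCH complex, was at 72.7 ± 3.32 CPM in Top3b-KO and 65.0 ± 4.08 CPM in WT (log2 fold change 0.16, edgeR adjusted p 0.89). NOTCH target genes had 3 of 8 tested above 0 and 5 below, and Heyl and Ptcra were too low to test. The median was -0.083, at -0.15 without Top3b-KO replicate 1 and at -0.0029 without Top3b-KO replicate 2. Il7r, the interleukin-7 receptor chain of naive T cells, was at 194 ± 7.12 CPM in Top3b-KO and 169 ± 4.11 CPM in WT, with genotypes apart, a log2 fold change of 0.20 and an edgeR adjusted p of 0.68. All 10 T cell markers were also above 0, with a median of 0.088 (0.028 without WT replicate 3) and summed levels that overlapped between genotypes, and the part of T cell content in Il7r was not tested.

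STAT factors and STAT target genes, which mark the signals that induce Pim kinases, had 2 of 10 above 0 and 8 below, with a median of -0.020 that ran from -0.071 without WT replicate 3 to 0.031 without WT replicate 1. Their most abundant members were Mcl1, a survival factor, with a log2 fold change of -0.029, and Stat3, with -0.0061.

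Cell cycle genes that act with or after the D-type cyclins were described by 3 lists. CDK inhibitors had 2 of 5 tested above 0 and 3 below, with a median of -0.0025 that ran from -0.022 without Top3b-KO replicate 1 to 0.034 without Top3b-KO replicate 3. Cdkn1b, which encodes p27, was at 200.2 ± 5.88 CPM in Top3b-KO and 198.9 ± 10.8 CPM in WT (SD, n = 3), and Cdkn2d at 31.99 CPM in Top3b-KO and 30.9 CPM in WT. The tumour suppressors Cdkn2a and Cdkn2b had 15 and 20 counts over all 6 libraries and were not tested. The RB and E2F list had 5 of 17 above 0 and 12 below, with a median of -0.040 that ran from -0.074 without WT replicate 1 to -0.026 without Top3b-KO replicate 3. Its most abundant members were Rbl2 (98.2 CPM in Top3b-KO, 99.4 CPM in WT) and E2f2 (83.4 CPM in Top3b-KO, 87.9 CPM in WT).

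Proliferation markers had 3 of 20 above 0 and 17 below, with a median of -0.069. Leaving out WT replicate 2 gave -0.12, Top3b-KO replicate 3 -0.017 and WT replicate 1 -0.011. Their sum was 1114 to 1287 CPM in Top3b-KO and 1202 to 1335 CPM in WT, so the genotypes overlapped. Ccnb2, a mitotic cyclin, was at 7.996 ± 1.48 CPM in Top3b-KO and 10.4 ± 1.54 CPM in WT (log2 fold change -0.34, edgeR adjusted p 0.88). The proliferation antigen Mki67 was at 208 CPM in Top3b-KO and 211 CPM in WT. Stem and progenitor markers, a setting of high Myb, summed to 65.1 to 70.8 CPM in Top3b-KO and 67.5 to 78.3 CPM in WT.

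**Figure D5:**
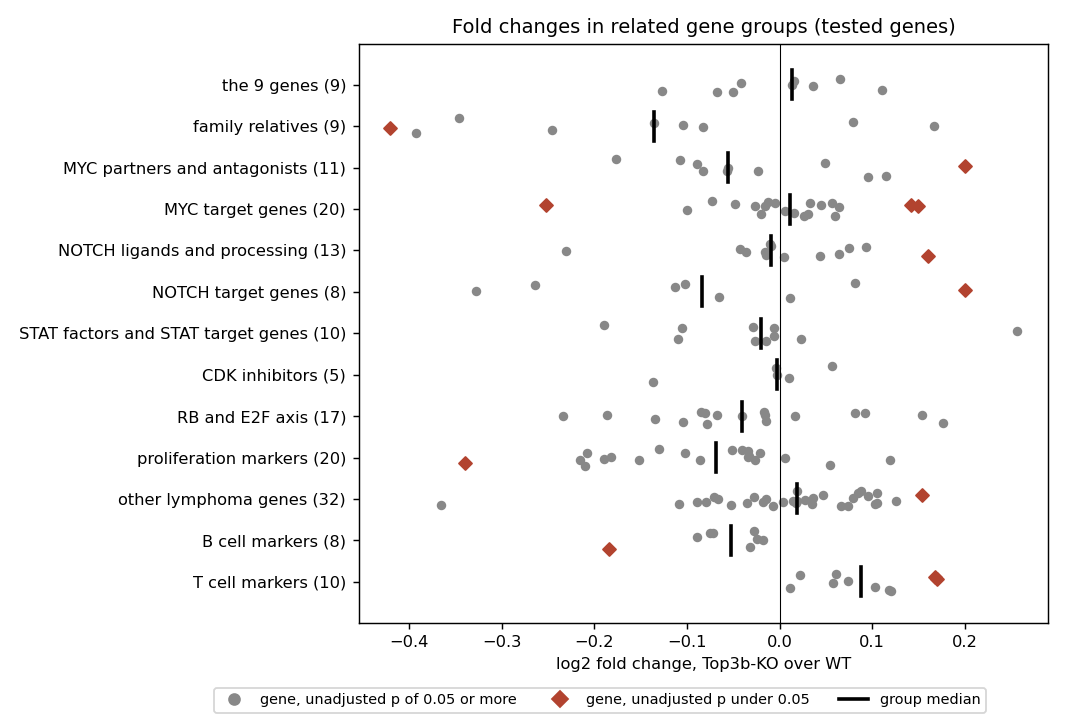
Log2 fold change of Top3b-KO over WT (x axis) for each tested gene of 13 groups, with the number tested in brackets, group medians as bars and genes at an unadjusted edgeR p under 0.05 as diamonds. The 9 genes lie between -0.13 and 0.11, and the medians of the other groups lie between -0.14 and 0.088.

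Further genes mutated or rearranged in lymphoma had 20 of 32 tested above 0 and 12 below, with a median of 0.019 that ran from 0.0066 without WT replicate 1 to 0.043 without WT replicate 2. Bcl2, the survival gene activated by translocation in human follicular lymphoma, was at 269 ± 14.8 CPM in Top3b-KO and 242 ± 20.1 CPM in WT (log2 fold change 0.15, edgeR adjusted p 0.89). Genotypes did not overlap for 5 of the 32 genes, where 11.0% of all tested genes had no overlap in either direction and 5.39% none with Top3b-KO higher. All 5 were higher in Top3b-KO: Bcl11b, Ikzf1, Crebbp, Atm and Jak2, with log2 fold changes of 0.10, 0.085, 0.13, 0.095 and 0.10. B cell markers had 0 of 8 above 0 and a median of -0.052, which was -0.12 without WT replicate 1 and -0.0069 without WT replicate 2. Blk, a B cell kinase, was at 173 ± 4.61 CPM in Top3b-KO and 196 ± 18.7 CPM in WT (log2 fold change -0.18, edgeR adjusted p 0.84). Among T cell markers, Cd3e was at 174 ± 5.27 CPM in Top3b-KO and 155 ± 5.38 CPM in WT (log2 fold change 0.17, edgeR adjusted p 0.83), and Cd28 had a log2 fold change of 0.17 (edgeR adjusted p 0.90).

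Markers of other spleen populations were described in the same way. Germinal centre markers summed to 108 to 128 CPM in Top3b-KO and 111 to 133 CPM in WT, with 3 of 8 above 0, 5 below and a median of -0.021 that ran from -0.12 without WT replicate 2 to 0.058 without Top3b-KO replicate 3. Their most abundant genes were Bcl6 (80.4 CPM in Top3b-KO, 81.3 CPM in WT) and Fas (11.7 CPM in Top3b-KO, 13.4 CPM in WT). Plasma cell markers summed to 409 to 552 CPM in Top3b-KO and 461 to 548 CPM in WT, with 0 of 7 above 0 and a median of -0.089 (-0.16 without WT replicate 2, -0.037 without Top3b-KO replicate 3), led by Irf4 (188 CPM in Top3b-KO, 193 CPM in WT) and Jchain (177 CPM in Top3b-KO, 184 CPM in WT). Neutrophil markers, whose sums are given beside Ccnd3, had 4 of 8 above 0 and 4 below. Their median of -0.015 turned on single libraries: dropping Top3b-KO replicate 3 gave -0.63, and dropping Top3b-KO replicate 1 gave 0.30. They were led by Ltf (260.2 CPM in Top3b-KO, 237 CPM in WT) and Ngp (247 CPM in Top3b-KO, 244 CPM in WT). Myeloid and macrophage markers summed to 735 to 944 CPM in Top3b-KO and 808 to 879 CPM in WT, with 3 of 8 above 0, 5 below and a median of -0.017 (-0.043 without Top3b-KO replicate 1, 0.0035 without WT replicate 3), led by Lyz2 (409 CPM in Top3b-KO, 403 CPM in WT) and Csf1r (167 CPM in Top3b-KO, 169.7 CPM in WT). Stem and progenitor markers had 3 of 6 tested above 0 and 3 below, with a median of -0.064. With single libraries left out, the median ran from -0.12 without Top3b-KO replicate 2 to 0.093 without WT replicate 1. With no filter on low counts it was -0.22. Gata2, a progenitor factor, was at 6.55 CPM in Top3b-KO and 8.56 CPM in WT, and Meis1, named after its values were seen, at 6.99 CPM in Top3b-KO and 5.57 CPM in WT. Erythroid markers had 0 of 9 tested above 0, a median of -0.37 (-0.64 without Top3b-KO replicate 1, -0.14 without WT replicate 2) and sums of 843 to 1239 CPM in Top3b-KO and 1042 to 1829 CPM in WT, led by Hbb-bs (636 CPM in Top3b-KO, 831 CPM in WT) and Hba-a1 (117 CPM in Top3b-KO, 189 CPM in WT). The summed levels of each of these marker lists overlapped between the genotypes.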

How the data were processed

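The authors deposited expected counts per gene symbol for 6 libraries, which per the submitters' processing notes came from STAR alignments to mm39. No source used here gives the counting tool, its strand setting or the annotation. Values that were not whole (tolerance 1e-06) occurred for 72 symbols, none of them among the 9 genes, and all were rounded. The protocol describes more than 1 library kit and sequencer, so the preparation of each library is not settled.

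Genes were kept by filterByExpr and tested with edgeR 4.0.16 (quasi-likelihood, TMM, robust dispersion, genotype as the only term, two-sided, Benjamini-Hochberg over all 18716 genes, threshold 0.05) in R 4.3.3. limma 3.58.1 and DESeq2 1.42.0 served as alternatives. The fit was also run on simulated data with known fold changes. CPM are scaled by TMM factors; a floor of 3 counts equals 0.119 to 0.303 CPM and covers counting error only. TPM used 48826 symbols (86.6%) matched to GENCODE M21, which is on another build than the counts, so positions are given only for the RefSeq promoter windows, on GRCm38.p6. The libraries are not said to come from separate animals, so p-values measure only the spread between them.

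The 9 genes and all lists were chosen with earlier results of these data known. Named genes were, per list, up to 4 at an unadjusted p under 0.05, otherwise the 2 most abundant, and for the 3 most variable members the 3 genes nearest in pattern. Ccnd1, Notch2, Huwe1, Adam10, Mki67, Tspan31, Bysl, the 5 lymphoma genes without overlap and the genes too low to test were named after their values were seen. Lists were described by counts and medians, without a test. The CUT&Tag libraries of the study were not analysed here.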

Additional observations from a re-analysis of the deposited data

How the results depend on the processing

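The count of the 9 genes past edgeR's threshold was 0 in the main test and in all 14 alternatives: DESeq2, limma-voom, RLE and upper-quartile scaling, no filter, a stricter filter, robust = FALSE, the replicate block and each library left out. Over all genes, beside 2 in the main test, 6 passed with DESeq2, 44 with no filter on low counts, 1 with robust = FALSE and 41 with the replicate block; leaving out a library gave 1 to 32. The 32 arose on leaving out WT replicate 3, and dropping Top3b-KO replicate 1 gave 9. The causes were not tested. No label pairs the libraries, so the replicate numbers were not taken as pairs. Same-numbered libraries had deviations that correlated at 0.16, -0.0067 and 0.0093, and differently numbered ones at -0.080 to 0.078. Whether same-numbered libraries share a batch or day was not tested. Log2 fold changes near 0 changed sign: Ccnd3 was at -0.0011 with limma-voom. With each library left out, Ccnd3 ran from -0.080 to 0.097, Notch1 from -0.055 to 0.17, Pim1 from -0.13 to 0.029, Pim2 from -0.10 to 0.0086, Ccnd2 from -0.0013 to 0.073 and Cdk6 from -0.050 to 0.074. The difference in the log2 ratio of Ccnd2 over Ccnd3 ran from -0.035 to 0.13 and that of Pim1 over Pim2 from -0.044 to 0.078. Precision is limited by the 3 libraries per genotype.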
